A study of Mus musculus with 8 samples.

Results

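The 34 genes described here are the Hox genes outside the HoxA cluster, 10 in HoxB, 9 in HoxC and 9 in HoxD, and the 6 ParaHox genes Gsx1, Gsx2, Pdx1, Cdx1, Cdx2 and Cdx4. Their open chromatin was read from ATAC-seq peaks of leukemic granulocyte-macrophage progenitors (L-GMPs). A peak belonged to a gene when its summit lay inside the gene's mm10 span or within 5 kb of it. Peaks of all 8 libraries that shared at least 1 bp were merged into regions. The 34 genes held 74 of 138385 regions, and they are 34 of the 21631 protein-coding genes in the gene table.

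Hox genes encode homeodomain transcription factors that lie in 4 clusters and assign position along the body axis. Their order on the chromosome follows the order of their expression along the embryo, which is called colinearity. Polycomb complexes keep unused Hox chromatin compact, and Trithorax complexes with MLL keep used Hox genes active. MLL fusion proteins such as MLL-AF9 maintain the posterior HoxA genes and Meis1 in leukemia. HOX proteins bind DNA together with PBX and MEIS partners. ParaHox genes form a sister family: Gsx1 and Gsx2 act in the developing brain, Pdx1 in the pancreas, and the Cdx genes in the gut and in axial patterning upstream of Hox genes.

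The cells came from the bone marrow of mice with MLL-AF9-driven acute myeloid leukemia and were sorted as Lin-, Sca-1-, c-Kit+, CD16/32+ and CD34+. DEK is a chromatin-binding protein, and every library carries MLL-AF9. FL 1 and FL 2 were Dek fl/fl without Cre, and KO 1 and KO 2 were Dek fl/fl with Mx1-Cre, an interferon-inducible Cre. FL 3 was Dek+/+ and KO 3 was Dek fl/fl with Tie2-Cre, whose promoter is active in endothelial and blood-forming cells. In 4S-A 1 and 4S-A 2, alanine replaced the DEK serines 306, 308, 311 and 312. The labels name no age, sex or strain, and they do not say whether the libraries of a group came from separate animals, so the spread between libraries may be technical. FL 1, FL 2, KO 1 and KO 2 are called the Mx1-Cre set below, and the other 4 libraries the Tie2-Cre set. Each name gives the Cre of the set's knockouts and not of every library in it. KO 1, KO 2 and KO 3 thus differ from one another in Cre line, and FL 3 differs from FL 1 and FL 2 in its Dek allele.

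Each library is 1 list of peaks. Read depth is unknown, and the length of the list is the only depth that can be seen. The lists held 51510 to 74026 peaks in the Mx1-Cre set and 91586 to 104605 in the Tie2-Cre set. A peak's strength is given as its percentile of −log10 q within its own list, where 100 is the strongest peak. The 4 genes of the sorting gate (Kit, Cd34, Fcgr3 and Fcgr2b) and the 6 myeloid progenitor markers held peaks in all 8 libraries. Ly6a, which encodes the Sca-1 antigen that the gate excludes, held a peak in 3 of 8. Deletion of Dek cannot be read from a peak list and was not checked here.

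The 250 bases before the start of 4 members show what these lists do and do not register as open. They come from the RefSeq promoter table for GRCm38.p6, the same assembly as mm10, on the plus strand, and capitals mark CpG dinucleotides. Gsx1 (chr5:147188446-147188695) is shown because its start region was the only ParaHox region present in all 8 libraries. Hoxb4 (chr11:96318017-96318266) is shown because its region was among the strongest in the controls and weak or missing in 2 knockouts. Hoxd13 (chr2:74667975-74668224) had a weak region at its start in 7 libraries. Gsx2 (chr5:75075351-75075600) had none at its start in any library.
Gsx1: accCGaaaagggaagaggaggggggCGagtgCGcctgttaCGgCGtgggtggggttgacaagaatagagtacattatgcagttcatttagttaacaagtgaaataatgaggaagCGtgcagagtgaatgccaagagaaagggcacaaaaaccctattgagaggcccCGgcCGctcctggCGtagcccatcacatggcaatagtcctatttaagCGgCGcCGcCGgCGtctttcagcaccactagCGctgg
Hoxb4: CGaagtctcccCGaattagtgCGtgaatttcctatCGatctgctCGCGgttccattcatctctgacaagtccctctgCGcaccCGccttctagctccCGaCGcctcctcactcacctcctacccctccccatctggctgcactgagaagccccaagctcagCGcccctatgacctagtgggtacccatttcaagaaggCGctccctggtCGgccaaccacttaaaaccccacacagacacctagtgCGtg
Hoxd13: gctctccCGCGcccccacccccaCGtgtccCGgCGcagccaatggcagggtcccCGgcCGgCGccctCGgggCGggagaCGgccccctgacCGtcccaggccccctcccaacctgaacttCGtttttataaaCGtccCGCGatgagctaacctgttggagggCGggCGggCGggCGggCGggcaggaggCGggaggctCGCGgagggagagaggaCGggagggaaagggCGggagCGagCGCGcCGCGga
Gsx2: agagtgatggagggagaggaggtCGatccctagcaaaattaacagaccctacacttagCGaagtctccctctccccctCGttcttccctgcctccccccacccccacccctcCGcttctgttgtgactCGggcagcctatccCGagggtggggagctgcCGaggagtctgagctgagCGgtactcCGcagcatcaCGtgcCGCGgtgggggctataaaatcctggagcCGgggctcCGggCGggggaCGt
The Gsx1 stretch held 15 CpG, Hoxb4 14, Hoxd13 31 and Gsx2 16, against a median of 6 over 32851 windows of the same length. CpG content therefore did not separate the open Gsx1 start from the Gsx2 start, which was without a peak. The counts that follow cover 18 of the 34 members only, 19 windows in all. Of these, 15 lay above the median in CpG, compared with 46.3% of all windows. The PBX-HOX motif TGATTNAT, searched on both strands, was found in 1 of 19 windows, that of Hoxd11, and in 2.82% of all windows. The MEIS motif TGACAG was found in 0 of 19 and in 15.9% of all windows. CCAAT was found in 12 of 19 and in 33.8% of all windows. These matches describe letters in the windows and say nothing of factor binding.

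All 34 members held a peak in at least 1 library, but few did so in every library. A peak in all 8 libraries was found for 3 of 10 HoxB genes (Hoxb3, Hoxb7 and Hoxb9), 4 of 9 HoxC genes (Hoxc5, Hoxc6, Hoxc9 and Hoxc10), 5 of 9 HoxD genes (Hoxd3, Hoxd10, Hoxd11, Hoxd12 and Hoxd13) and 1 of 6 ParaHox genes (Gsx1). In all, 13 of 34 members (38.2%) met this, against 66.8% of protein-coding genes. Among HoxA genes 10 of 11 did, all but Hoxa5. Without KO 1 the count was 5 in HoxB and 3 in ParaHox, and without FL 1 it was 2 in ParaHox. Windows of neighbouring genes overlap, so genes of 1 cluster can share a peak, as Hoxd11 and Hoxd12 did.

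By regions, as by genes, HoxD had the largest share, and HoxB and ParaHox the smallest. Present in all 8 libraries were 1 of 22 HoxB regions (4.55%), 2 of 20 HoxC regions (10%), 3 of 17 HoxD regions (17.6%) and 1 of 15 ParaHox regions (6.67%). Over the 34 genes the share was 7 of 74 (9.46%), against 24.1% of all regions and 33.3% of the 27 HoxA regions. The members' regions were also weak: the median of their median percentiles was 18.1, against 32.9 in HoxA and 32.5 over all regions. Regions seen in 1 library only made up 24.3% of the members' regions and 23.5% of all regions, so the members did not differ from the rest in that respect.

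**Figure D1:**
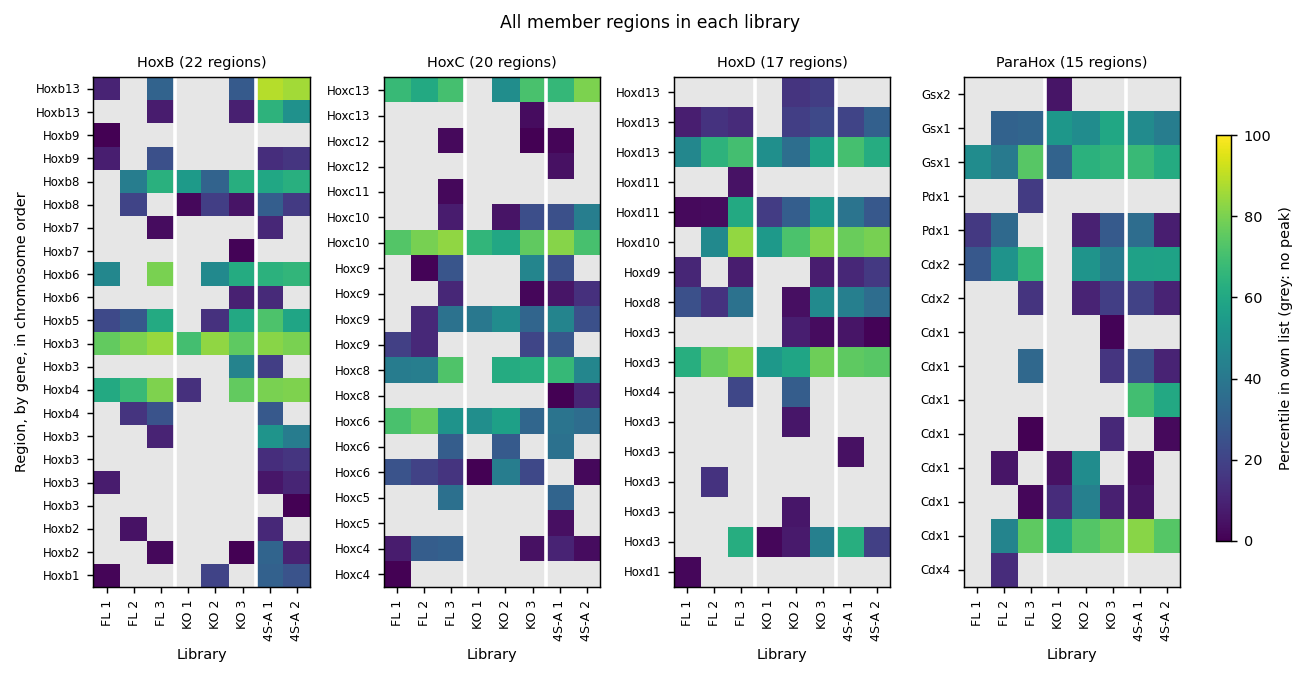
Percentile of each of the 74 member regions (rows, by gene in chromosome order) in each of the 8 libraries (columns), with grey where a library has no peak. Colour runs from 0 to 100, white lines separate FL, KO and 4S-A, and 7 rows are filled in all 8 columns.

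Genes at the other end of the range held a peak in a single library. Hoxc11 had its peak in FL 3 (percentile 2.11), Hoxd1 in FL 1 (1.84), Gsx2 in KO 1 (5.72) and Cdx4 in FL 2 (12.5). Hoxd4 held a peak in 2 libraries, FL 3 (21.1) and KO 2 (29.6), and Hoxc12 in 3. Apart from those of Hoxd4 and Cdx4 these peaks lay below percentile 6. The 6 genes are spread over HoxC, HoxD and the ParaHox group, and none lies in HoxB. In HoxB the genes with the fewest libraries were Hoxb1 with 4, and Hoxb2 and Hoxb13 with 5 each.

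In HoxB, the region held most evenly lay inside Hoxb3 (chr11:96311158-96312228), an anterior gene of the cluster. Its percentile was 75.9, 80.2 and 84.7 in FL 1, FL 2 and FL 3, and 70.1, 83.5 and 75.4 in the knockouts. It was 82.1 in 4S-A 1 and 79.8 in 4S-A 2. All 8 values lay above 70, and the groups overlapped. The mean of KO minus FL was -3.93 percentile points (FL 80.2 ± 4.40 and KO 76.3 ± 6.78, SD, n = 3 each; exact two-sided permutation p = 0.4). With 3 libraries against 3 this test cannot go below 0.1.

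Hoxb4 encodes a homeodomain factor known for expanding blood stem cells in culture. Its region (chr11:96317646-96319138, with its strongest summit 361 bp inside the gene) stood at 60.7, 67.9 and 80.8 in FL 1, FL 2 and FL 3. It stood at 13.9 in KO 1, was missing from the list of KO 2 and stood at 76.1 in KO 3. In 4S-A 1 and 4S-A 2 it stood at 79.8 and 80.8. Both Mx1-Cre knockouts thus lay below all controls, and the Tie2-Cre knockout lay among them. Of 17860 regions that FL 1 and FL 2 held at a percentile at least as high as this one, 24 (0.134%) were missing from KO 2. KO 2 was taken for this share because it lacked the region, so the share is no test. With all lists reduced to their strongest 51510 peaks, the values were 60.7, 65.8 and 65.9 in FL and 5.97, none and 56.8 in KO. The region also lies within the span the table gives for Hoxb3.

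The hairpin of Mir10a starts 4937 bp after the strong Hoxb3 region and ends 372 bp before the Hoxb4 region. Its partner Mir10b lies in HoxD, inside the span of Hoxd4. Both microRNAs are shown because they share a seed, bases 2 to 8, given in capitals, and lie beside Hox genes of the same paralog group.
miR-10a-5p: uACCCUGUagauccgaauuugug
miR-10b-5p: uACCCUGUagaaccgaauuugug
Within 5 kb of Mir10a there were 2, 3 and 2 peaks in FL 1, FL 2 and FL 3, 1, 0 and 3 in the knockouts, and 4 and 1 in the serine mutants. Within 5 kb of Mir10b there was 1 peak in FL 3 and 1 in KO 2, and none in the other 6 libraries. The paralogous sites thus differed in how often they were open.

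The central HoxB genes had regions of middle strength. That of Hoxb6 (chr11:96294397-96295102) stood at 46.5 in FL 1 and 80.0 in FL 3, and at 47.6 in KO 2 and 61.7 in KO 3. It stood at 64.1 and 65.9 in 4S-A 1 and 4S-A 2 and was missing from FL 2 and KO 1. One library of each Mx1-Cre group lacked it, so it does not separate the groups. The regions beside Hoxb5 and Hoxb8 were each held by 7 libraries, at 14.2 to 71.9 and at 31.9 to 63.5.

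Hoxb13, the posterior end of HoxB, is best known from prostate, hindgut and tail. Its region (chr11:96193548-96194831, with its strongest summit 76 bp outside the low-coordinate end of the gene) stood at 88.9 in 4S-A 1 and 86.1 in 4S-A 2, the highest percentile of any member region in either library. FL 3 had it at 31.9, KO 3 at 28.4 and FL 1 at 9.78, and it was missing from FL 2, KO 1 and KO 2. Both 4S-A libraries thus lay at least 54.1 percentile points above FL 3 and KO 3. A gap as large was found at 96 of 67053 regions held by these 4 libraries (0.143%). The region was picked after its values were seen, so this share gives its place and is no test. In lists of equal length the region was held by FL 1 (9.78), 4S-A 1 (77.5) and 4S-A 2 (74.4) only.

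The second Hoxb13 region (chr11:96199640-96200475) moved the same way. It stood at 7.46 in FL 3 and 8.89 in KO 3, and at 64.5 and 50.7 in 4S-A 1 and 4S-A 2, and it was missing from the Mx1-Cre set. The gap of 41.8 was reached at 330 of 67053 regions (0.492%). Outside the 5 kb limit, the next region (chr11:96202435-96203957) stood at 15.1 in FL 3 and 36.7 in KO 3, and at 74.3 and 69.9 in the serine mutants. A region on the other side (chr11:96163248-96163741) was missing from FL 3, stood at 28.4 in KO 3 and at 60.7 and 56.1 in the 4S-A libraries. These neighbours were chosen after their values were seen. Farther out, regions at chr11:96133557-96134171 and chr11:96261425-96261892 did not follow: FL 3 had 69.7 and 63.0 there, above the 62.9 and 62.7 of 4S-A 2. Others did, by smaller gaps. The region at chr11:96234957-96235440 stood at 47.9 in FL 3 and 38.0 in KO 3, and at 64.8 and 63.8 in 4S-A 1 and 4S-A 2. That at chr11:96145596-96146154 stood at 60.2 in FL 3 and 64.9 in KO 3, and at 80.3 and 70.6 in the serine mutants.

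**Figure D2:**
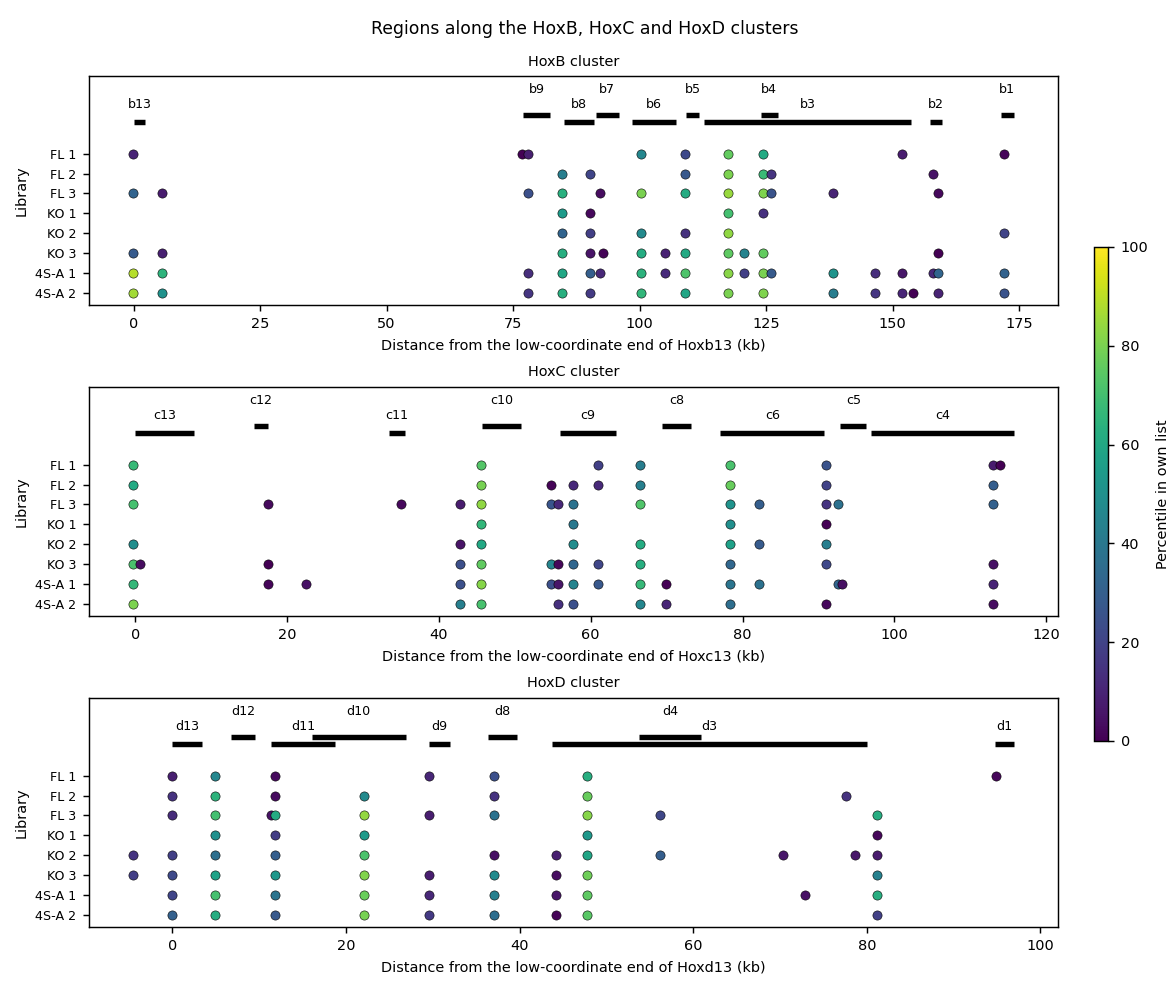
Regions along HoxB, HoxC and HoxD by distance in kb from the low-coordinate end of the first gene (x axis), with 1 row per library and colour for the percentile in the library's own list. Black bars are gene spans; the Hoxb3, Hoxc10 and Hoxd3 columns are filled in all 8 rows, and the 2 Hoxb13 regions are strong only in both 4S-A rows.

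In HoxC, the strongest region lay beside Hoxc10 (chr15:102966404-102966987), a posterior gene, 181 bp outside its low-coordinate end. The controls had 73.1, 79.7 and 83.4, the knockouts KO 1, KO 2 and KO 3 had 65.6, 60.1 and 75.6, and the 4S-A libraries had 81.9 and 71.1. The 2 lowest values were those of the Mx1-Cre knockouts, and KO 3 overlapped the controls. The mean of KO minus FL was -11.6 (exact two-sided permutation p = 0.2, n = 3 each). With the lists cut to equal length the groups no longer overlapped: 73.1, 78.3 and 70.6 in FL against 62.5, 42.7 and 56.0 in KO.

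Hoxc13, known for its part in hair and nail, had a region at its low-coordinate end (chr15:102920595-102921514). It stood at 67.4, 60.8 and 70.6 in FL 1, FL 2 and FL 3, was missing from KO 1, and stood at 49.1 in KO 2 and 71.5 in KO 3. It stood at 66.8 and 80.1 in 4S-A 1 and 4S-A 2. Of 17825 regions at least as high in FL 1 and FL 2, 97 (0.544%) were missing from KO 1, the library taken because it lacked the region. The region 2941 bp outside Hoxc8 (chr15:102987295-102987786) had 41.9, 43.0 and 72.7 in the controls, was missing from KO 1, and stood at 61.5 in KO 2, 62.7 in KO 3, 66.8 in 4S-A 1 and 45.7 in 4S-A 2. For Hoxc8 only KO 1 stood apart.

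Hoxc6, a central gene, held a region in all 8 libraries (chr15:102998672-102999821). The controls FL 1, FL 2 and FL 3 had 71.4, 76.6 and 51.4, the knockouts KO 1, KO 2 and KO 3 had 49.4, 56.7 and 33.0, and the 4S-A libraries had 38.7 and 35.7. Each knockout lay below the controls of its own set. Pooled, KO minus FL was -20.1 (exact two-sided permutation p = 0.2, n = 3 each), since FL 3 overlapped the Mx1-Cre knockouts. After Benjamini-Hochberg adjustment over the 7 regions tested, the exact p-values lay between 0.525 and 1. Cut to equal length, the lists of KO 3 and both 4S-A libraries no longer held the region. It then stood at 71.4, 75.1 and 13.5 in the controls and at 44.7 and 37.8 in KO 1 and KO 2, and no test was made on these.

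In HoxD, strong regions lay at the posterior genes Hoxd10 and Hoxd13 and in Hoxd3. The Hoxd10 region (chr2:74690026-74690471) was missing from FL 1 and stood at 47.3 in FL 2 and 83.9 in FL 3. The knockouts had 54.0, 71.6 and 81.2, and the 4S-A libraries 77.0 and 79.5. Over both sets control and knockout values were interleaved. Within the Mx1-Cre set both knockouts lay above FL 2, and FL 1 lacked the region.

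The Hoxd3 region (chr2:74715753-74716329) stood at 62.7, 76.9 and 81.7 in FL 1, FL 2 and FL 3, at 53.2, 59.0 and 78.1 in the knockouts, and at 75.0 and 74.0 in the serine mutants. KO minus FL was -10.3 (exact two-sided permutation p = 0.3, n = 3 each). The Hoxd13 region 1569 bp past the gene (chr2:74672686-74673327) had 46.2, 64.7 and 70.1 in the controls, 49.7, 36.3 and 57.8 in the knockouts, and 70.4 and 62.0 in the serine mutants. Its KO minus FL was -12.4 (exact two-sided permutation p = 0.3, n = 3 each). For both, knockouts and controls overlapped in the lists as deposited. At equal length they did not: FL at 62.7, 75.3 and 67.4 against KO at 48.9, 41.0 and 60.4 for Hoxd3, and FL at 46.2, 62.4 and 46.9 against KO at 45.1, 8.47 and 23.7 for Hoxd13.

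The Hoxd11 region (chr2:74679919-74680397) ran the other way in the Mx1-Cre set. It stood at 2.46 and 2.94 in FL 1 and FL 2 and at 17.6 and 29.7 in KO 1 and KO 2, but at 60.7 in FL 3 and 53.3 in KO 3. The 4S-A libraries had 38.7 and 27.7. Pooled, KO minus FL was 11.5 (exact two-sided permutation p = 0.6, n = 3 each). It was 30.9 without FL 3 and lay between 1.63 and 1.99 without KO 3, FL 1 or FL 2. The weak region over the Hoxd13 sequence printed above stood between 8.44 and 30.8 in the 7 libraries that held it and was missing from KO 1.

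Among ParaHox genes, the region over the Gsx1 sequence printed above (chr5:147188517-147189112) stood at 48.8, 41.2 and 74.0 in FL 1, FL 2 and FL 3, at 31.7, 63.9 and 65.7 in the knockouts, and at 67.7 and 61.4 in the serine mutants. KO minus FL was -0.877 (exact two-sided permutation p = 1, n = 3 each), with both groups spread over more than 30 percentile points. Gsx1 is a neural gene, and its start was open in every list.

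The strongest ParaHox region lay 3834 bp outside Cdx1 (chr18:61039187-61040222). It was missing from FL 1 and stood at 45.2 in FL 2, 75.4 in FL 3, 61.9 in KO 1, 73.2 in KO 2, 77.1 in KO 3, 82.3 in 4S-A 1 and 73.7 in 4S-A 2. Here too both Mx1-Cre knockouts lay above FL 2. The Cdx2 region 1574 bp outside the gene (chr5:147299032-147299940) stood at 27.7, 51.5 and 66.5 in FL, was missing from KO 1, and stood at 51.7 and 42.2 in KO 2 and KO 3 and at 57.3 and 57.6 in 4S-A. Of the 2 intestinal Cdx genes, Cdx1 was thus lowest in a control and Cdx2 in a knockout. Cdx2 can drive leukemia when it is expressed in blood cells. Pdx1 was covered by weaker regions, at most 35.9.

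**Figure D3:**
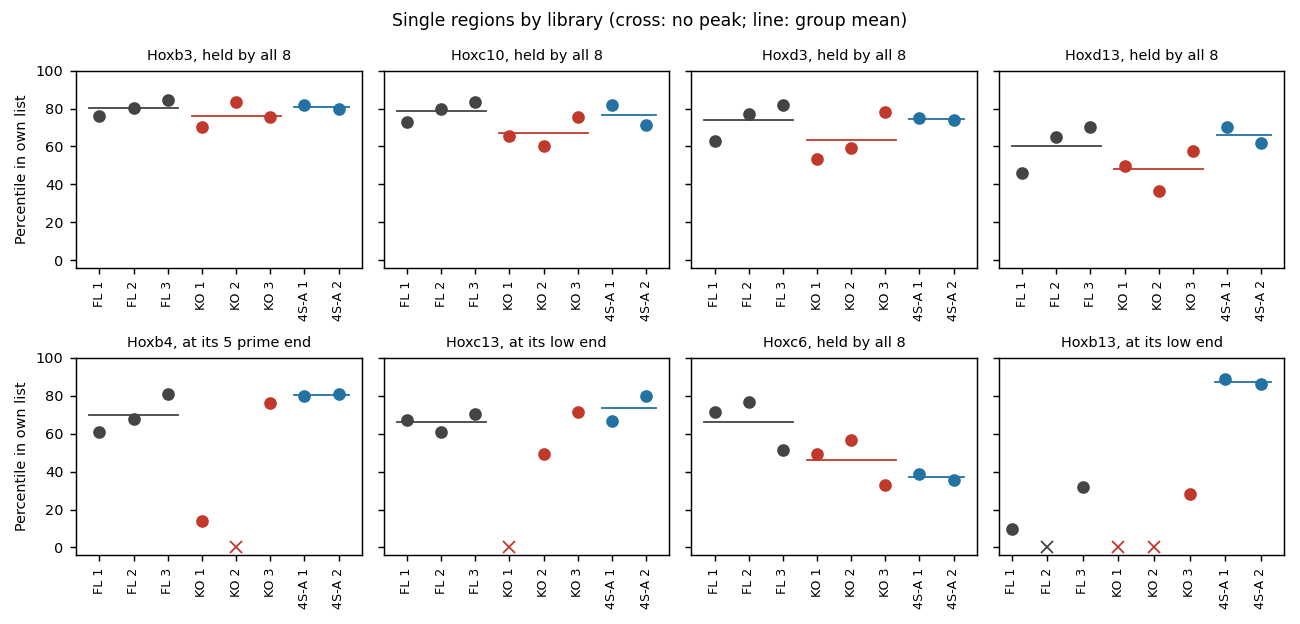
Percentile in the library's own list (y axis, 0 to 100) of 1 region for each of 8 genes in every library (x axis), with a cross where the list has no peak and a line at the mean of groups in which every library has one. The 4 upper regions are present in all 8 libraries; below, Hoxb4 is lowest in KO 1 and missing from KO 2, and Hoxb13 is above 80 in both 4S-A libraries only.

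The first comparison asked whether loss of Dek changed peaks at these genes. HoxB counted 10, 8 and 12 peaks in FL 1, FL 2 and FL 3 and 4, 6 and 13 in KO 1, KO 2 and KO 3. HoxC counted 8, 10 and 14 in FL and 4, 8 and 13 in KO. HoxD counted 8, 7 and 10 in FL and 5, 12 and 10 in KO. ParaHox genes counted 3, 7 and 10 in FL and 6, 10 and 11 in KO. The mean of KO minus FL was -2.33 peaks in HoxB and in HoxC, 0.667 in HoxD and 2.33 in ParaHox, each smaller than the larger of its groups' SDs (1.53 to 4.73 over all clusters, n = 3 each). Within replicate numbers 1, 2 and 3 the differences were -6, -2 and 1 in HoxB, -4, -2 and -1 in HoxC, -3, 5 and 0 in HoxD, and 3, 3 and 1 in ParaHox. HoxC and ParaHox thus kept 1 sign in all 3 pairs, with SDs of the pair differences of 1.53 and 1.15. That sign depends on matching numbers 1 and 2 by label, which the correlations given below do not favour for FL 2. HoxC counted 8 in both FL 1 and KO 2, and ParaHox 7 in FL 2 but 6 in KO 1. The HoxD mean turned negative at equal length (-2.33), at 0 kb (-0.667) and without KO 2 (-0.833). The ParaHox mean was 0.333 at equal length, and the HoxC mean was -0.167 without KO 1. At equal length KO minus FL exceeded both SDs in HoxB (-3.33, SDs 2.52 in FL and 1.73 in KO). It also did in HoxC (-2.67, 2.65 and 1.53), HoxD (-2.33, 1.53 and 1) and HoxA (-2.67, 2 and 1.15). Within the Mx1-Cre set this cut takes more from the knockouts. KO 1 is cut from 56245 peaks and KO 2 from 74026, FL 2 from 54887, and FL 1 not at all. Per 10000 peaks of the list, KO minus FL exceeded both SDs in HoxB (-0.597, 0.330 and 0.371) and HoxC (-0.572, 0.163 and 0.343). It did so in HoxA as well (-0.537, 0.487 and 0.151). There it did not in HoxD (-0.112, 0.232 and 0.381) or ParaHox (0.217, 0.359 and 0.143).

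Within sets the HoxB numbers parted. KO minus FL was -4 peaks in the Mx1-Cre set and 1 peak in the Tie2-Cre set, where each arm is 1 library. KO 2 had 74026 peaks, more than FL 1 and FL 2, and yet fewer HoxB peaks. Per 10000 peaks of the list, HoxB had 1.94 and 1.46 in FL 1 and FL 2 and 0.711 and 0.811 in KO 1 and KO 2, while FL 3 had 1.31 and KO 3 1.40. HoxA had 3.11 and 2.92 in FL 1 and FL 2 against 2.31 and 2.03 in KO 1 and KO 2, and 2.18 in FL 3 against 2.26 in KO 3. The lower density in the Mx1-Cre knockouts was therefore shared by HoxA and HoxB. HoxC followed, with 1.55 and 1.82 in FL 1 and FL 2 against 0.711 and 1.08, whereas HoxD and ParaHox values overlapped.

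**Figure D4:**
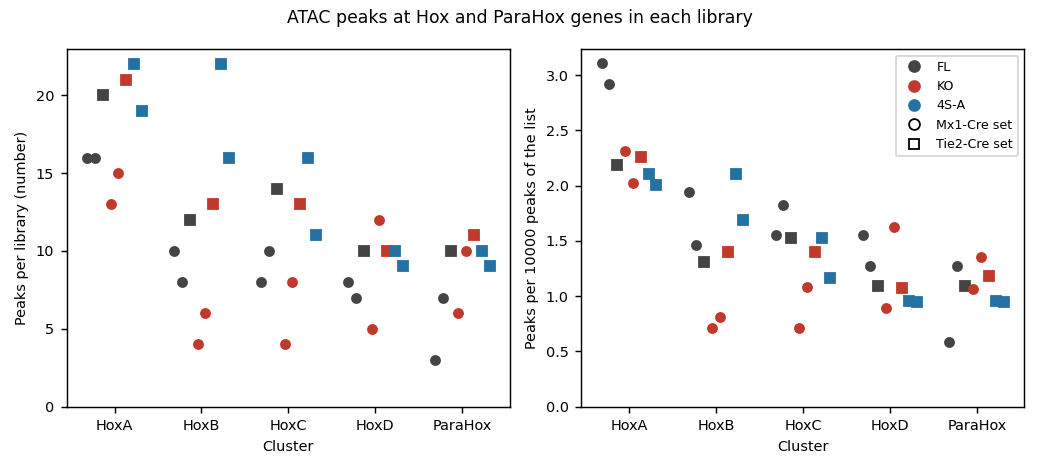
Peaks at the genes of each cluster in each library as a number (left) and per 10000 peaks of the library's list (right), with circles for the Mx1-Cre set and squares for the Tie2-Cre set. Each point is 1 library; HoxA is shown for comparison, and in HoxB the 2 red circles (4 and 6 peaks) lie below the 2 grey ones (10 and 8).

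No member region was lost or gained across all 6 libraries. Of 16 regions that all 3 FL libraries held, 0 were missing from all 3 KO libraries, against 0.214% over all regions. Of 16 that all 3 KO libraries held, 0 were missing from all FL libraries, against 0.754%. Both counts were thus at the background. Without KO 3, FL 1 or FL 2 the count of lost regions was 1. The count of gained regions was 2 without FL 3 or KO 1, and 1 without FL 2.

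Between Mx1-Cre knockouts and their controls, 2 of 18 regions were lost (2.07% over all regions), both in HoxC. One lay in Hoxc9 (chr15:102981673-102982353), at 19.1 and 11.3 in FL 1 and FL 2, 20.9 in KO 3 and 26.9 in 4S-A 1. The other lay over the start that the promoter table gives for Hoxc4 (chr15:103033881-103034683), at 7.53, 29.7 and 30.8 in FL 1, FL 2 and FL 3, with KO 3 at 4.65 and the serine mutants at 10.0 and 3.40. Both were weak where present. Gained were 2 of 17 regions, against 13.5% over all regions: one 1135 bp outside Hoxd3 (chr2:74749232-74749758), at 1.90 and 7.12 in KO 1 and KO 2, and one in Cdx1 (chr18:61033649-61034016), at 12.7 and 43.4. That gain was at the background. The Hoxd3 region stood at 62.5 in FL 3 and the Cdx1 region at 1.64, so both were also held by a control. In the Tie2-Cre set, with 1 library per arm, 10 of 45 regions of FL 3 were missing from KO 3 (14.4% over all regions). Of 45 regions of KO 3, 10 were missing from FL 3 (15.3%). Other libraries, the 4S-A ones among them, held some of these regions.

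Counted by gene, Hoxb3, Hoxb4, Hoxc4 and Hoxd9 held fewer peaks in KO 1 and KO 2 than in FL 1 and FL 2, 4 of 32 members against 2.60% of genes. Among HoxA genes 2 of 11 did so too (Hoxa3 and Hoxa5). Hoxb3 had 5 and 6 peaks in FL 1 and FL 2 against 2 and 2, and Hoxb4 2 and 3 against 1 and 0. Hoxb3 and Hoxb4 share part of these peaks. Cdx1 alone held more, 3 and 4 against 0 and 2, where 15.4% of all genes did. In lists of equal length 8 of 29 members held fewer (7.54% of genes) and 1 held more (7.10%). Of the HoxA genes, 3 of 11 held fewer there. The 8 members include neighbours whose windows overlap, such as Hoxb3, Hoxb4 and Hoxb5, so they are not separate calls. Across all 6 libraries 0 of 34 members separated FL from KO in either direction, against 0.255% of genes with fewer and 0.793% with more. At equal length this was 0 of 29, against 0.684% with fewer and 0.799% with more.

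Among regions held by all 6 libraries, 0 of 8 had lower percentiles in every KO than in every FL library, against 0.965% over all such regions. In lists of equal length 3 of 5 did (Hoxd13, Hoxd3 and Hoxc10, described above), against 3.76%. None of the members' regions was higher in every KO library in either kind of list, against 3.86% and 3.09%. The separation thus depended on reducing the lists to 51510 peaks, which removes nothing from FL 1 and most from the Tie2-Cre set. Within the Mx1-Cre set it removes more from KO 2 (74026 peaks) than from FL 2 (54887).

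The second comparison asked whether the alanine form of DEK changed these genes, against FL 3 and KO 3 of the same set. HoxB counted 22 and 16 peaks in 4S-A 1 and 4S-A 2 against 12 and 13. HoxC counted 16 and 11 against 14 and 13, HoxD 10 and 9 against 10 and 10, and ParaHox 10 and 9 against 10 and 11. HoxB was the only cluster of the 4 in which both 4S-A libraries exceeded FL 3 and KO 3. Its peaks per 10000 of the list were 2.10 and 1.69 against 1.31 and 1.40. At equal length HoxB counted 8 and 7 against 5 and 6. With 2 libraries in each arm an exact two-sided permutation test of 1 value cannot go below p = 0.333, and none was made.

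Of 40 regions in each 4S-A list, FL 3 and KO 3 lacked 5, against 10.8% over all regions. Of 35 held by FL 3 and KO 3, 0 were missing from both 4S-A libraries, against 5.16%. The gained regions were near the background in number, and 3 of them lay in HoxB. Leaving out 1 library gave more calls: 4 lost and 7 gained without FL 3, 4 and 8 without KO 3, 3 and 6 without 4S-A 1, and 2 and 10 without 4S-A 2. Inside Hoxb3, one (chr11:96340678-96340979) stood at 13.2 and 15.4 in 4S-A 1 and 4S-A 2 and was held by no other library. The other (chr11:96345997-96346308) stood at 5.87 and 10.5, and at 7.53 in FL 1. The one in Hoxb1 (chr11:96366046-96366495) stood at 31.0 and 25.6, at 20.1 in KO 2, and was also in the list of FL 1.

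The remaining gained regions were those of Hoxc8 (chr15:102990784-102991210), at 0.357 and 10.4, and Cdx1 (chr18:61020630-61021287), at 69.7 and 60.4. Both were held by the 4S-A libraries alone. Of 9140 regions gained in this comparison, 598 (6.54%) had a mean percentile at least as high as the Cdx1 region, which lies 2252 bp inside the low-coordinate end of the gene. The other 4 were weak.

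By rank, 5 of 30 regions stood higher in both 4S-A libraries than in FL 3 and KO 3, against 25.9% over all regions, and 3 stood lower, against 19.9%. The higher ones were both Hoxb13 regions and those of Hoxd9 (by at least 3.13 percentile points), Hoxb2 (7.50) and Hoxc10 (0.719). The lower ones were the regions of Hoxd11, Hoxd10 and Hoxd3. At equal length the balance turned: 0 of 13 stood higher, against 19.4%, and 4 of 13 lower (Hoxd10, Hoxd3, Gsx1 and Hoxb8), against 26.1%. The Hoxb13 regions were not among these 13, since FL 3 and KO 3 no longer held them. By gene, 5 of 31 members held more peaks in both 4S-A libraries (Hoxb1, Hoxb2, Hoxb3, Hoxb13 and Hoxc8), against 13.9% of genes, and 0 held fewer, against 6.65%. At equal length 2 of 22 held more (Hoxb13 and Cdx1), against 7.98%, and 3 held fewer (Hoxd10, Hoxd11 and Hoxd12), against 8.39%. Those 3 genes count the same Hoxd11 region (chr2:74679919-74680397), so they are not separate calls. At equal length FL 3 and KO 3 held that region and neither 4S-A library did. The counts of gained regions and of genes with more peaks thus lay close to the background. The Hoxb13 regions had large gaps, given above, but were picked after these were seen, so the shares given with them are no test.

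Markers of some other cells held more regions in the 4S-A libraries, and those of others did not. Over all genes, 13.9% held more peaks in both 4S-A libraries than in FL 3 and KO 3. The 4S-A lists were also the longest of the series. The 4 endothelial genes Cdh5, Kdr, Tek and Pecam1 held 27 and 26 regions in 4S-A 1 and 4S-A 2, 8 to 18 in FL and 15 to 19 in KO. They did not all move: Tek held 4 peaks in each 4S-A library and 0 in the other 6, and Cdh5 held 7 and 6 against 3 in FL 3 and 2 in KO 3. Kdr held 4 in all 4 libraries of the set, and Pecam1 held 13 and 12 against 12 in FL 3 and 14 in KO 3. The 4 stromal genes held 17 and 16 regions in 4S-A, 6 to 12 in FL and 9 to 13 in KO. Among them Lepr held 3 and 3 peaks against 1 in FL 3 and 1 in KO 3, and Cxcl12 4 and 4 against 3 and 3. Pdgfra, with 7 and 7 against 7 and 6, and Col1a1, with 4 and 3 against 2 and 4, did not separate. The 4 B cell genes held 13 and 14 regions, below the 17 of FL 3 and the 19 of KO 3. T cell genes held 14 and 12 against 9 and 9, and among them only Bcl11b separated, with 10 and 9 peaks against 6 and 5. Megakaryocyte genes held 7 and 4 against 8 and 8, and erythroid genes 10 and 7 against 8 and 9. The part of such cells in the Hoxb13, Cdx1 and HoxB values was not tested.

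Most genes that act on or with Hox genes held peaks throughout. Peaks in all 8 libraries were found for 7 of 9 genes for PBX, MEIS and PKNOX partners, 9 of 10 for Trithorax and MLL factors, and 16 of 16 for Polycomb factors, against 66.8% of protein-coding genes. No region of the 3 lists was lost or gained between all FL and all KO libraries, against the 0.214% and 0.754% given above. Pbx3, which encodes a PBX partner, held 5, 4 and 7 peaks in FL 1, FL 2 and FL 3, 3, 3 and 16 in the knockouts, and 9 and 8 in the serine mutants. Meis1, a target of MLL fusions, held 9, 11 and 21 in the controls, 8, 13 and 19 in the knockouts, and 22 and 24 in the serine mutants. Of the genes and microRNAs inside or beside the Hox and ParaHox clusters, 9 of 14 in the gene table held a peak in all 8 libraries, close to the share of all genes.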

How the data were processed

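The tools named in the submitters' processing notes are MACS2, featureCounts, Picard, Bowtie2 2.2.9 and Trim Galore 0.4.4, with mm10 as the build and no role or parameters given. The authors deposited 1 narrowPeak list per library. Each peak carries a score, a fold enrichment (a ratio to local background), a −log10 p-value and a −log10 q-value as deposited by the authors. None is scaled between libraries, so −log10 q served only for percentiles within a list. The 5 kb windows used RefSeq gene spans of GRCm38.p6, without exons. Cdx1 was not among the members whose promoter windows were counted for CpG and motifs. Scripts ran in Python 3.11.15 with pandas 2.3.3 and were tested on simulated lists.

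The members, gene lists and tests were chosen with earlier results of these data known. Values were printed, by rule, for the 3 regions of highest median percentile per cluster (in at least 4 libraries), regions lost or gained, those in all 8 libraries whose FL and KO values do not overlap, and those held by the 4S-A libraries alone. Other regions, genes and microRNAs named were chosen after their values were seen.

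FL and KO share replicate numbers 1 to 3 in the labels. Peak names inside the lists of KO 1 and KO 2 carry other numbers than their labels, and the labels were followed. Over union regions, deviations of same-numbered libraries correlated at 0.380, 0.224 and 0.541, so the numbers were treated as pairs. FL 1 with KO 2 and FL 2 with KO 1 gave 0.165 and 0.357, so number 3 mainly marks the Tie2-Cre set.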

Additional observations from a re-analysis of the deposited data

Results flagged for a closer look

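The number of HoxB peaks went opposite ways in the 2 sets. KO minus FL was -4 peaks in the Mx1-Cre set, where both knockouts lay below both controls, and 1 peak in the Tie2-Cre set, where each arm is 1 library. The Hoxd11 region held by all 8 libraries also went opposite ways, with KO minus FL at 21.0 percentile points for Mx1-Cre and -7.34 for Tie2-Cre. These differences between the sets were not tested. Cre line, control genotype, library set and list length cannot be told apart here.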

How the results depend on the processing

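Counts of members with a peak in every library followed the window. At 0 kb they were 1 in HoxB, 2 in HoxC, 2 in HoxD and 0 in ParaHox, and at 10 kb 7, 7, 8 and 4. Lists of equal length gave 2 in HoxC, and a −log10 q of at least 5 gave 1 in HoxB. Leaving out 1 library gave 3 to 5 in HoxB, 4 to 6 in HoxC, 5 to 6 in HoxD and 1 to 3 in ParaHox. The highest HoxB and ParaHox counts came without KO 1, and ParaHox had 2 without FL 1.

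KO minus FL in HoxD turned from 0.667 to -2.33 peaks in lists of equal length and to -0.667 at 0 kb. In HoxB it turned to 1 within the Tie2-Cre set. Leaving out 1 library gave -5 to -0.5 in HoxB, -4.67 to -0.167 in HoxC, -0.833 to 2.67 in HoxD (negative without KO 2) and 0.5 to 4 in ParaHox. With the replicate block the differences were -2.33, -2.33, 0.667 and 2.33. They equal those without it by arithmetic, so the block is no check of these means. For the ranks of single regions the paired sign-flip test cannot go below 0.25 with 3 pairs and so could make no call.

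Between KO and FL, a −log10 q of at least 5 gave 1 gained region, and leaving out 1 library gave 0 to 1 lost and 0 to 2 gained. Within the Mx1-Cre set 2 were lost and 2 gained, and within the Tie2-Cre set 10 and 10. For 4S-A, 1 region was lost in lists of equal length, at a −log10 q of at least 5, and with summits required within 200 bp of the strongest one, an alternative chosen after seeing the data. Equal length gave 3 gained. Against FL 3 alone 4 were lost and 8 gained, and leaving out 1 library gave 2 to 4 lost and 6 to 10 gained. The most gained came without 4S-A 2, with 8 without KO 3. The Gsx1 difference ranged from -7.63 to 10.1 over these omissions, and was 8.79 without FL 3 and 10.1 without KO 1. Read depth is unknown, so a missing peak may lie under the calling threshold.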
